A study of Mus musculus with 36 samples.

Results

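The comparison set bone-marrow-derived macrophages against glioma cells, each grown without the other, before myelin was added. Its members were the mono-culture libraries labelled 0 hours: 3 macrophage libraries and 3 libraries labelled Tumor cell, 6 of the 36 libraries in the gene count table. The study grew mouse macrophages and glioma cells alone or together, exposed them to myelin debris, and profiled each cell type by bulk RNA sequencing. The 6 libraries carried the treatment label Control. The macrophages came from bone marrow, with no strain, genotype or age in the labels. The tumour cells were the line PDG-Ink4a Recurrent, derived from a brain tumour. In that mouse model, platelet-derived growth factor B is forced into Nestin-positive progenitor cells that lack Ink4a/Arf. The study's protocol speaks of MES-like (mesenchymal-like) tumour cells. The tumour arm was therefore 1 line, and nothing in the labels says whether libraries 001, 002 and 003 were separate cultures or animals. For the tumour line, the library-to-library spread behind every p-value printed may therefore be technical only. The macrophage libraries differed in Y-linked transcripts, given below, so they were not 3 repeats of 1 sample. How many animals they represent is not given.

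Macrophages are phagocytes of the myeloid lineage. Their identity depends on the transcription factor PU.1 and on signalling through the CSF1 receptor, and they take up debris, lipoproteins and iron through scavenger receptors and lysosomes. Glioma cells of the platelet-derived growth factor type usually resemble glial progenitors. Cells of the mesenchymal glioma state instead make extracellular matrix and carry the activity of YAP and TAZ, transcriptional co-activators that act through TEAD proteins. In glioma tissue the tumour cells and the macrophages exchange growth factors and cytokines, so which cell transcribes a ligand and which transcribes its receptor is of interest.

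Of the 29883 genes in the table, 13106 had enough counts to be tested. A gene is called where edgeR's quasi-likelihood test gave a Benjamini-Hochberg adjusted p under 0.05. Levels are in CPM (counts scaled to library size), log2 differences are macrophages minus tumour cells, and errors on them are standard errors. The cell types differed across most of the transcriptome: 9144 genes were called (69.8% of those tested), 4231 higher in macrophages (32.3%) and 4913 higher in tumour cells (37.5%). Because a call alone was the usual outcome, members of gene groups are also counted at a stricter limit, called and at least 4-fold apart, which 3546 genes met (27.1%). Of these, 1395 were higher in macrophages (10.6%) and 2151 in tumour cells (16.4%). The median absolute log2 difference over all tested genes was 0.79.

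The 6 libraries held 8501443 to 14708387 counts each, and the whole set of 36 held 7911378 to 15319104. Libraries 001 of both cell types stood apart. One unnamed transcript, CT010467.1, took 17.4% of the counts in macrophage 001 and 13.4% in tumour 001, against 0.391 to 0.641% in the other 4. Tumour 001 also differed from tumour 002 and 003 in its level of macrophage transcripts. Over the 25 macrophage lineage genes at 100 CPM or more in macrophages, the median level in tumour cells was 0.0647% of the macrophage mean in library 001, 1.27% in 002 and 1.38% in 003. The range ran from 0 to 48.9% in 001 and from 0.721 to 78.6% in 003, with Runx1, Lyn and Syk, which tumour cells may also transcribe, at the top. In the other direction, 37 collagen and matrix genes had median levels of 0.0201, 0.0483 and 0.196% of the tumour mean in the 3 macrophage libraries. The part of such RNA in any single result was not tested. With both 001 libraries left out, 4979 genes were called higher in macrophages and 5489 in tumour cells, 1504 and 2301 of them at least 4-fold. With tumour 002 and 003 left out instead, the counts were 3612 and 3942, with 1455 and 2118 at least 4-fold. Transcripts of the Y-linked genes Ddx3y, Kdm5d and Eif2s3y were present in macrophage 001 and in the 3 tumour libraries and at 0 in macrophage 002 and 003, so the macrophage libraries did not share Y-linked transcripts. Ddx3y stood at 71.4, 0 and 0 CPM in the macrophages and 87.8, 102 and 98.2 CPM in the tumour cells and was not called (adjusted p = 0.255).

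The locus named in the model was checked first. Cdkn2a, the Ink4a/Arf gene, was measured at 0.545, 0.327 and 0.457 CPM in macrophages and 2.77, 2.77 and 2.32 CPM in tumour cells, a log2 difference of -2.59 ± 0.32 (SE, adjusted p = 2.32e-04). It was low in all 6 libraries and higher in the tumour libraries. A count per gene does not tell whether reads lie outside a deleted part, so this gene checks nothing about the label. Its neighbour Cdkn2b was measured at 2.18, 1.57 and 1.37 CPM in macrophages and 96.6, 96.0 and 81.8 CPM in tumour cells (log2 -5.79 ± 0.17, adjusted p = 2.21e-07). Pdgfb, the driver of the model, stood at only 2.50, 4.54 and 5.17 CPM in tumour cells, and whether a transgene's transcript is counted under that name is not told by the table.

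Promoter sequences of 3 genes at least 4-fold higher in macrophages and 3 at least 4-fold higher in tumour cells are shown here. They were picked among genes whose window holds a searched word, so they say nothing about how common the words are. The word was that of PU.1, the central myeloid factor, for the macrophage genes and that of TEAD for the tumour genes. The macrophage genes are not in the macrophage lineage list, and the tumour genes are in the YAP and TEAD list. The windows are the 250 bases before the first RefSeq start of each gene (GRCm38.p6), written 5′ to 3′ on the gene's strand. Capitals mark the searched word. For PU.1 the word was GAGGAAGT, whose reverse complement is ACTTCCTC. For TEAD it was GGAATG, whose reverse complement is CATTCC. Both strands were searched, and the words do not overlap each other in these windows.

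Fcgr4 encodes an Fc receptor for immunoglobulin G (chr1:171018676-171018925, plus strand), Hpgds a prostaglandin D synthase (chr6:65144731-65144980, minus strand) and Mmp12 the macrophage elastase (chr9:7344147-7344396, plus strand). The PU.1 word starts 24 bases before the Fcgr4 start and 88 before the Mmp12 start on the opposite strand, and 49 before the Hpgds start on the gene's own strand.
Fcgr4: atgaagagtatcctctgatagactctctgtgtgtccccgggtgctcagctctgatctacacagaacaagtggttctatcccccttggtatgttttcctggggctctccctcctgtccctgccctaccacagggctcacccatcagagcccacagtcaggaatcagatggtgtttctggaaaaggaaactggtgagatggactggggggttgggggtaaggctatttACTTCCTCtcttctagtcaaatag
Hpgds: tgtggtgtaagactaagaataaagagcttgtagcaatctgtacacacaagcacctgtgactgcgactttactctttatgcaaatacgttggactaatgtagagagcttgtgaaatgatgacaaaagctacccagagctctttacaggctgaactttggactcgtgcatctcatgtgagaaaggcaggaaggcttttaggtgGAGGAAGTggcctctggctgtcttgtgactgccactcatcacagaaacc
Mmp12: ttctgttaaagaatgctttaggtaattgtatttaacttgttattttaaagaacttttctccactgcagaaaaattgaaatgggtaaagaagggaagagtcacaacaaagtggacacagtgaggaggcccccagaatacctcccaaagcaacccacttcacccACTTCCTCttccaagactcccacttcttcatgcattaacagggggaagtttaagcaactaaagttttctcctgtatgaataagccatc

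Ankrd1 encodes a nuclear repeat protein (chr19:36119845-36120094, minus strand), Ccn1 a secreted matricellular protein (chr3:145649986-145650235, minus strand), and Wwtr1 the co-activator TAZ (chr3:57575911-57576160, minus strand). Ankrd1 has the TEAD word at 2 places, 210 and 123 bases before the start. Ccn1 has it on the opposite strand 103 bases before the start, and Wwtr1 on its own strand 136 bases before the start.
Ankrd1: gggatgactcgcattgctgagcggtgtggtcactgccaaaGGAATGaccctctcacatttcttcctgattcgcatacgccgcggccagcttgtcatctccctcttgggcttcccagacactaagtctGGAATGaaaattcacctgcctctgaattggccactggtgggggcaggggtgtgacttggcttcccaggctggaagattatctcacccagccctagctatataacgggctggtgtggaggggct
Ccn1: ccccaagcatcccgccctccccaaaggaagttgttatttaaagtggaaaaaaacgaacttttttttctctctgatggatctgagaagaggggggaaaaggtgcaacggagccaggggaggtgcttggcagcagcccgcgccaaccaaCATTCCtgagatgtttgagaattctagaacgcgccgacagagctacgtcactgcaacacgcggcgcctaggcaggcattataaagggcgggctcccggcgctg
Wwtr1: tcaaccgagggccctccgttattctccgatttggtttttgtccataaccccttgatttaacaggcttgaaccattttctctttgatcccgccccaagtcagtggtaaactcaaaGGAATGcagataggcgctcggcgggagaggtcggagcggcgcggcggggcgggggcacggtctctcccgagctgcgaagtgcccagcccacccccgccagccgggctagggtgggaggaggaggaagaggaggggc

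Of the tested genes, 9990 had a RefSeq window. The PU.1 word was in 262 of these (2.62%), in 67 of the 1024 genes at least 4-fold higher in macrophages (6.54%) and in 18 of the 1542 at least 4-fold higher in tumour cells (1.17%). It was in 660 of all 27025 RefSeq windows (2.44%). Within the macrophage lineage list itself only 1 of 24 windows held it. The TEAD word was in 1014 tested windows (10.2%), 108 of the macrophage genes (10.5%), 217 of the tumour genes (14.1%) and 3414 of all windows (12.6%). Of the 11 YAP and TEAD genes with a window, 9 held it (81.8%). Many genes of that list are known as direct TEAD targets. A match is a run of letters and not a measured binding site.

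Identity genes separated the cell types. Of the 34 macrophage lineage genes, 34 were called higher in macrophages and 32 of them at least 4-fold, with a median log2 difference of 6.05. These genes took 1.74 to 2.38% of the counts in the macrophage libraries and 0.0220 to 0.0757% in the tumour libraries. Of the 97 identity genes tested in 4 lists, 86.6% were at least 4-fold apart, against 27.1% of all genes. The lists hold identity markers chosen with earlier results of these data known. A member could also pass the count filter only through the group where it was high. A high share was therefore built in, and it is no test of the labels.

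Spi1, which encodes PU.1, was measured at 241, 251 and 228 CPM in macrophages and 0.0925, 1.46 and 2.01 CPM in tumour cells, a log2 difference of 7.59 ± 0.42 (SE, adjusted p = 2.65e-06). Csf1r, the receptor for CSF1 and IL-34, was measured at 1736, 2384 and 1895 CPM against 1.11, 18.1 and 27.6 CPM (log2 7.00 ± 0.97, adjusted p = 4.06e-04). Ptprc, the leukocyte marker CD45, was measured at 741, 908 and 925 against 0.555, 6.31 and 6.95 CPM (log2 7.51 ± 0.68, adjusted p = 3.72e-05). For each of these the 3 macrophage libraries were close together and far above every tumour library, while tumour 001 lay below tumour 002 and 003. Tyrobp, the adaptor DAP12, was measured at 773, 736 and 738 against 0, 6.07 and 7.10 CPM (log2 7.38 ± 0.84, adjusted p = 1.38e-04). Lyz2, the lysozyme of myeloid cells, varied widely among the tumour libraries: 6724, 7766 and 8089 CPM in macrophages and 2.59, 154 and 212 CPM in tumour cells (log2 5.93 ± 1.31, adjusted p = 0.00446); its call was lost without a filter on low counts (adjusted p = 0.0547). Maf, a transcription factor of resident macrophages that other tissues also use, differed less, at 84.6, 86.6 and 103 against 17.1, 16.7 and 13.6 CPM (log2 2.54 ± 0.13, adjusted p = 2.05e-06). With tumour 002 and 003 left out, genes close to 0 in tumour 001 had larger differences, 10.86 for Csf1r and 11.55 for Lyz2.

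Glial progenitor genes were split. Of the 32 listed, 29 were in the table and 16 were tested, of which 12 were higher in tumour cells, 3 were higher in macrophages and 1 was not called. Sox2, a stem and progenitor factor, had 0 counts in the macrophages and stood at 19.5, 14.8 and 17.3 CPM in tumour cells, at least 204-fold lower in macrophages (adjusted p = 8.10e-06). Pdgfra, the receptor of the progenitor lineage, was measured at 0, 0.327 and 0.533 CPM in macrophages and 118, 114 and 114 CPM in tumour cells (log2 -8.39 ± 0.29, adjusted p = 3.70e-07). Cspg4, the proteoglycan NG2, was measured at 10.5, 21.7 and 20.8 against 516, 877 and 913 CPM (log2 -5.42 ± 0.37, adjusted p = 7.59e-06). These 3 genes were thus transcribed in every tumour library. Listed members too low to test had from 0 counts over the 3 tumour libraries (Olig1 and Ncan) to 84 (Nkx2-2). Ptprz1, Bcan and Prom1 had 1 count each there. Sox10 and Gfap, markers of the oligodendrocyte lineage and of astrocytes, were too low to test: Sox10 reached 1 count and Gfap stood at 0.185, 0.0769 and 0.154 CPM in the tumour cells. Olig2 was not analysed here. Nes, the filament nestin whose promoter drives the model, was higher in macrophages, at 42.7, 83.3 and 62.5 against 21.5, 31.0 and 35.3 CPM (log2 1.11 ± 0.27, adjusted p = 0.00711). Fabp7, a fatty acid carrier of radial glia, was also higher in macrophages, at 13.9, 18.6 and 16.5 against 0.185, 0.154 and 0.0772 CPM (log2 6.81 ± 0.28, adjusted p = 7.60e-07).

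Mesenchymal genes were high in the tumour cells. Of 31 tested members, 28 were called higher in tumour cells, 23 of them at least 4-fold, and the median log2 difference was -8.20, or -7.23 with genes at 0 counts set to their bound. Prrx1, a mesenchymal homeobox factor, was measured at 0, 0.523 and 0.457 CPM in macrophages and 491, 439 and 434 CPM in tumour cells (log2 -10.16 ± 0.32, adjusted p = 2.73e-07). Cdh2, N-cadherin, was measured at 0, 0 and 0.685 against 379.8, 418 and 401 CPM (log2 -10.58 ± 0.48, adjusted p = 1.15e-06). Twist1 had 0 counts in macrophages and 16.0, 9.54 and 12.4 CPM in tumour cells, at least 148-fold lower in macrophages (adjusted p = 4.09e-05). Each was at or near 0 in all macrophage libraries. Cd44, a hyaluronan receptor often used as a mesenchymal glioma marker, was abundant in both: 636, 881 and 709 CPM in macrophages and 1018, 1961 and 1925 CPM in tumour cells (log2 -1.14 ± 0.27, adjusted p = 0.00635). With tumour 002 and 003 left out its log2 difference was -0.40 and it was not called (adjusted p = 0.196). Tgfbi, a matrix adaptor in the same list, was higher in macrophages, at 342, 942 and 712 against 36.2, 19.1 and 23.5 CPM (log2 4.67 ± 0.44, adjusted p = 4.78e-05). Anxa1 was too, at 2987, 2603 and 2815 against 949, 846 and 838 CPM (log2 1.67 ± 0.13, adjusted p = 1.99e-05). Vim, the filament vimentin, was abundant in both cell types, at 3163, 3311 and 3029.6 against 4802, 4049.8 and 4029 CPM (log2 -0.44 ± 0.15, adjusted p = 0.0287). Leaving out any library other than tumour 001 ended its call, with log2 differences from -0.35 to -0.43.

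The YAP and TEAD list differed in 1 direction. Of 16 tested members, 15 were higher in tumour cells, 14 at least 4-fold, and 1 was not called, and the median log2 difference was -8.61. Yap1 was measured at 0.136, 0.0654 and 0.533 CPM in macrophages and 159.7, 166 and 160.1 CPM in tumour cells (log2 -9.27 ± 0.29, adjusted p = 2.96e-07). Wwtr1, the gene of TAZ shown above, was measured at 0, 0.131 and 0.304 against 177, 194 and 187 CPM (log2 -10.03 ± 0.26, adjusted p = 1.60e-07). Ankrd1 had 1 count in the macrophages against 99.8, 135 and 124 CPM in the tumour cells, a ratio of 4322 (95% counting interval 775 to 170729). Ccn1 was measured at 0.136, 0.589 and 2.13 against 819.7, 864 and 848 CPM (log2 -9.65 ± 0.52, adjusted p = 2.55e-06). The co-activators and these known target genes were thus transcribed in every tumour library and at or near 0 in the macrophages.

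**Figure D1:**
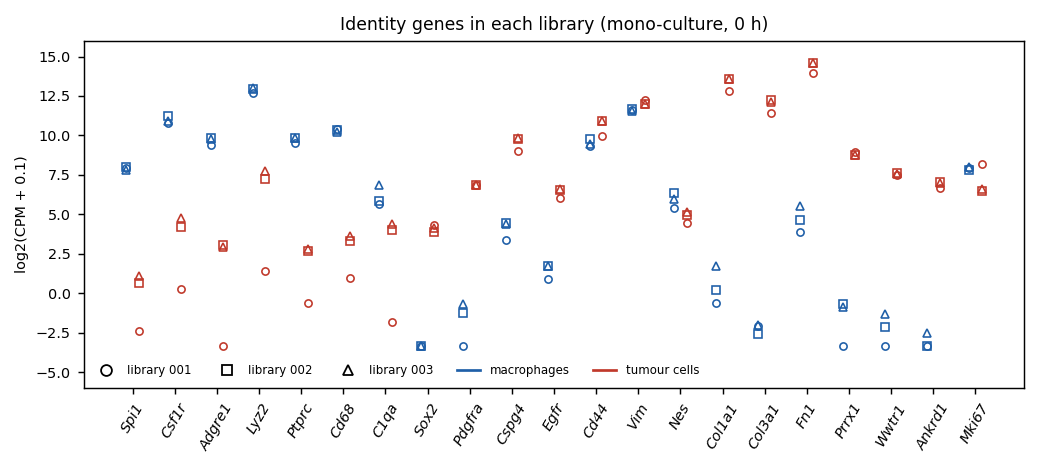
Levels of 21 identity genes in each of the 6 libraries, as log2(CPM + 0.1) on the vertical axis, with 1 column of points per gene, blue for macrophages and red for tumour cells, and marker shapes for libraries 001, 002 and 003. Spi1 to C1qa sit high in macrophages with tumour 001 (red circles) lowest, while Sox2, Pdgfra, Col1a1, Col3a1, Prrx1, Wwtr1 and Ankrd1 are near the bottom in macrophages.

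Proliferation genes differed less. Of 21 S phase genes, 14 were higher in macrophages and 7 were not called, with a median log2 difference of 0.79. Of 20 genes of G2 and mitosis, 19 were not called. These counts rested on tumour 001, whose mitotic transcripts were above those of tumour 002 and 003. Without tumour 001, 16 of the 20 mitotic genes were called higher in macrophages, and with tumour 002 and 003 left out instead, 16 were called higher in tumour cells. In the latter case 2 of the 21 S phase genes were higher in macrophages. Pcna, the replication clamp, was measured at 542, 718 and 669 CPM in macrophages and 120.4, 86.0 and 91.9 CPM in tumour cells (log2 2.69 ± 0.18, adjusted p = 6.65e-06). Cdt1, which licenses replication origins, was measured at 64.3, 74.2 and 65.1 against 26.1, 20.7 and 23.1 CPM (log2 1.55 ± 0.12, adjusted p = 1.40e-05). Mki67 stood at 245, 225 and 255 CPM in macrophages and at 294, 87.8 and 97.5 CPM in tumour cells and was not called (adjusted p = 0.255). Tumour 001 was above all macrophage libraries for Mki67 and tumour 002 and 003 were below them. Without tumour 001, Mki67 was called higher in macrophages (log2 1.38, adjusted p = 5.55e-06). Cdc20, the activator of the anaphase-promoting complex, was the single mitotic gene called, at 18.7, 17.9 and 13.8 against 66.2, 26.9 and 22.7 CPM (log2 -1.20 ± 0.40, adjusted p = 0.0293). In tumour 001 its level was more than that of tumour 002 and 003 together. Without tumour 001 the log2 difference of Cdc20 was -0.58, and its call was lost without any one of the macrophage libraries.

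The largest differences per direction, among called genes with a mean of at least 50 CPM in the higher group, were as follows. Only genes without overlap between the groups were ranked, and genes with clone or provisional names, chromosome Y genes and Xist were left out. H2-Aa, a class II antigen-presentation chain (chr17:34282744-34287823, mm10), stood at 82.7, 106 and 122 CPM in macrophages with 0 counts in tumour cells, at least 1315-fold higher (adjusted p = 3.68e-06). Cd36, a scavenger receptor for oxidised lipoproteins and fatty acids (chr5:17781690-17888801), was measured at 2240.3, 2394 and 2968 against 0, 1.000 and 0.926 CPM (log2 11.86 ± 0.64, adjusted p = 2.55e-06). Gpnmb, a glycoprotein of lysosome-rich macrophages (chr6:49036546-49070929), was measured at 22977, 14681 and 16389.9 against 7.77, 17.7 and 20.7 CPM (log2 10.19 ± 0.53, adjusted p = 2.12e-06). Among named genes, Gpnmb had the highest mean of all in macrophages. Cd74, the invariant chain that escorts class II molecules, was measured at 625, 932 and 848 against 0.277, 0.461 and 0.540 CPM (log2 10.82 ± 0.29, adjusted p = 1.88e-07). Ptafr, the receptor for platelet-activating factor, was measured at 305, 245 and 263 against 0, 0.154 and 0.309 CPM (log2 10.61 ± 0.31, adjusted p = 2.21e-07). Slamf7, a receptor of the SLAM family, had 2 tumour counts and a ratio of 2503 (95% counting interval 693 to 20677). Dcstamp, which serves the fusion of macrophages, also had 2 and a ratio of 1779.8 (95% counting interval 492 to 14702). The remaining 3 were Itgax, Mmp12 and Plcb2.

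On the tumour side, Cd248, endosialin, a marker of pericytes and stromal fibroblasts (chr19:5068078-5070682), had 0 counts in macrophages and 617, 744 and 755 CPM in tumour cells, at least 8471-fold lower in macrophages (adjusted p = 6.74e-07). Efemp1, the matrix protein fibulin-3 (chr11:28853204-28926743), also had 0 macrophage counts against 476, 609.7 and 566 CPM, at least 6619-fold lower (adjusted p = 7.98e-07). Col3a1, collagen III (chr1:45311538-45349706), was measured at 0.136, 0.0654 and 0.152 against 2719.9, 4842 and 4377 CPM (log2 -14.99 ± 0.45, adjusted p = 2.36e-07). The rest were Lama2, Klhdc8a, Crabp1, Itgbl1, Itga11, Cthrc1 and Col11a1. All but Col11a1 had 0 counts in macrophages, with bounds from at least 1822-fold (Cthrc1) to at least 3453-fold lower (Lama2). Crabp1, a retinoic acid binding protein, was uneven among the tumour libraries, at 432, 150.2 and 135 CPM.

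**Figure D2:**
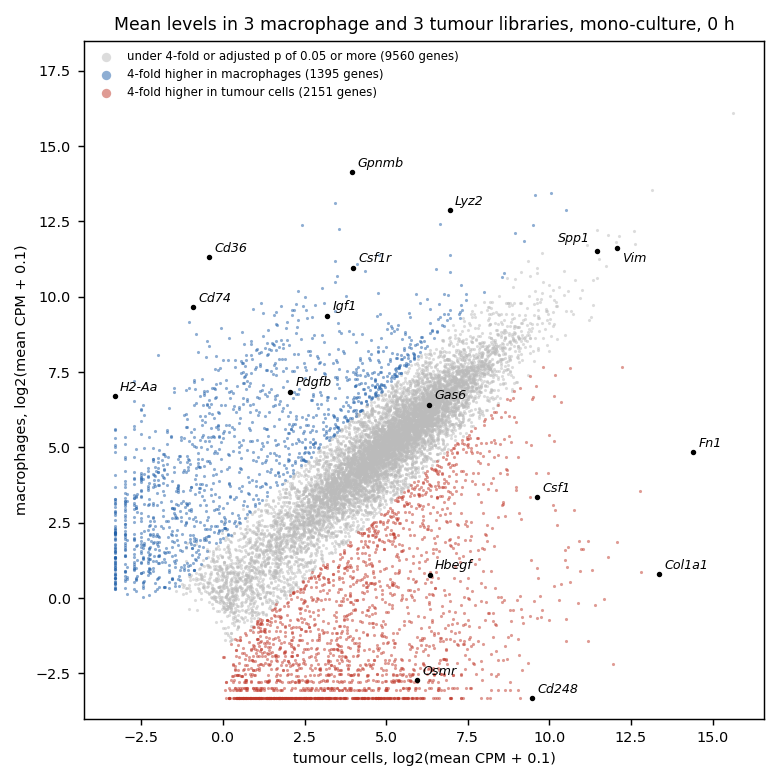
Mean level of each of the 13106 tested genes, tumour cells on the horizontal and macrophages on the vertical axis, both as log2(mean CPM + 0.1). Blue points are the 1395 genes at least 4-fold higher in macrophages, red points the 2151 at least 4-fold higher in tumour cells, grey points the rest, and the rows at the edges hold genes with 0 or few counts in 1 group.

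Surface receptors divided by family. Of 212 tested receptor genes, 105 were higher in macrophages and 89 in tumour cells, and 68.4% were at least 4-fold apart. Receptors of immune recognition were mostly higher in macrophages: 12 of 13 Fc and complement receptors, 18 of 21 pattern recognition receptors, 15 of 20 chemokine and chemoattractant receptors, and 17 of 22 inhibitory and checkpoint molecules were higher there. Receptor tyrosine kinases went the other way, with 27 of 33 higher in tumour cells, 25 of them at least 4-fold, and 5 higher in macrophages.

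Itgax, the chain CD11c of complement receptor 4, was measured at 496, 567 and 671 CPM in macrophages and 0, 0.615 and 0.540 CPM in tumour cells (log2 10.44 ± 0.42, adjusted p = 6.90e-07). Its partner Itgb2 was measured at 2127, 2433 and 2365 against 0.555, 13.8 and 17.8 CPM (log2 7.74 ± 1.00, adjusted p = 2.68e-04). Clec7a, the beta-glucan receptor Dectin-1, was measured at 238, 280.1 and 349.6 against 0, 0.615 and 0.849 CPM (log2 9.11 ± 0.42, adjusted p = 1.19e-06). No tumour library came near the macrophage range for any of them. Tlr13, a sensor of bacterial ribosomal RNA, was measured at 464, 565 and 569.7 against 0.185, 3.77 and 5.17 CPM (log2 7.41 ± 0.64, adjusted p = 2.86e-05). Tlr5, the flagellin receptor, was the single pattern recognition receptor higher in tumour cells, at 0.136, 0.589 and 0.609 against 6.57, 5.15 and 6.10 CPM (log2 -3.58 ± 0.38, adjusted p = 8.94e-05). Fcgrt, the neonatal Fc receptor, was the Fc receptor higher in tumour cells, at 10.8, 9.61 and 9.36 against 40.5, 24.4 and 24.4 CPM (log2 -1.59 ± 0.22, adjusted p = 4.25e-04).

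Among the 17 scavenger and lipoprotein receptors, 10 were higher in macrophages and 4 in tumour cells. Besides Cd36, Trem2, a lipid-sensing receptor that signals through Tyrobp, was measured at 744, 715 and 682 CPM in macrophages and 0.0925, 3.92 and 5.02 CPM in tumour cells (log2 7.84 ± 0.71, adjusted p = 3.73e-05). Mrc1, the mannose receptor, was measured at 94.8, 58.9 and 136 against 0.185, 1.69 and 2.78 CPM (log2 5.90 ± 0.57, adjusted p = 5.47e-05). Cd5l, a secreted scavenger protein of macrophages, stood at 36.4, 42.2 and 39.0 CPM with 0 tumour counts, at least 489-fold higher (adjusted p = 1.54e-06). Vldlr, a receptor for very low density lipoprotein, went the other way, at 0, 0.131 and 0.457 against 84.1, 64.8 and 59.4 CPM (log2 -8.22 ± 0.38, adjusted p = 1.25e-06). Scara3 had 0 counts in macrophages against 64.7, 41.6 and 41.4 CPM, at least 576-fold lower (adjusted p = 1.48e-05). Mertk, a receptor for apoptotic cells, was measured at 6.68, 8.70 and 19.6 against 4.99, 6.00 and 5.17 CPM (log2 1.13 ± 0.39, adjusted p = 0.0327). Its call rested on single libraries: it was lost without macrophage 003 (log2 0.58, adjusted p = 0.0509) and without tumour 001, 002 or 003.

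Chemokine receptors of monocytes were in macrophages. The 5 chemoattractant receptors higher in tumour cells became 3 without macrophage 002, macrophage 003, tumour 002 or tumour 003. Ccr2, the receptor of CCL2 and CCL7, stood at 19.2, 36.7 and 30.6 CPM with 0 counts in tumour cells, at least 378-fold higher (adjusted p = 3.71e-05). C5ar1, a complement anaphylatoxin receptor, was measured at 476, 775 and 616 against 0, 7.38 and 10.3 CPM (log2 6.69 ± 0.89, adjusted p = 3.24e-04). Cx3cr1, the fractalkine receptor, was measured at 16.4, 73.8 and 64.4 against 0.185, 5.84 and 9.11 CPM (log2 3.33 ± 0.84, adjusted p = 0.00875). Macrophage 001 lay well below macrophage 002 and 003 for Cx3cr1, which was not called without a filter on low counts (adjusted p = 0.0839). Ackr3, a scavenging receptor for CXCL12, had 0 macrophage counts against 48.3, 68.0 and 61.6 CPM in tumour cells, at least 715-fold lower (adjusted p = 4.06e-06). S1pr3, a sphingosine-1-phosphate receptor, had 1 macrophage count against 40.0, 68.2 and 67.9 CPM, a ratio of 2139 (95% counting interval 384 to 84538). Lpar1, a lysophosphatidic acid receptor, was measured at 1.91, 5.10 and 2.21 against 63.0, 61.7 and 58.8 CPM (log2 -4.23 ± 0.31, adjusted p = 1.10e-05). Of the receptors named, those for lysolipids and the scavenging receptor were thus on the tumour cells and the monocyte chemokine receptors on the macrophages.

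Of 30 cytokine receptors, 17 were higher in macrophages and 8 in tumour cells. Csf2rb, the common beta chain for GM-CSF, was measured at 993, 744 and 595 against 0.0925, 2.77 and 2.55 CPM (log2 8.69 ± 0.65, adjusted p = 1.32e-05). Tnfrsf11a, the receptor RANK, was measured at 151, 242 and 220.2 against 1.66, 1.77 and 2.32 CPM (log2 6.72 ± 0.25, adjusted p = 5.17e-07). Il10ra, the interleukin-10 receptor, was measured at 58.3, 67.6 and 64.1 against 0, 0.769 and 1.39 CPM (log2 6.37 ± 0.46, adjusted p = 1.10e-05). Osmr and Il1rl1, receptor genes of the oncostatin and interleukin-33 pathways, were higher in the tumour cells. Osmr, the oncostatin M receptor, had 2 macrophage counts against 57.3, 61.8 and 67.2 CPM, a ratio of 1116 (95% counting interval 309 to 9219.8). Il1rl1, the interleukin-33 receptor ST2, was measured at 2.04, 5.36 and 3.42 against 393, 208 and 218 CPM (log2 -6.15 ± 0.40, adjusted p = 6.10e-06). Tnfrsf12a, the TWEAK receptor, was measured at 12.9, 16.0 and 13.0 against 102, 131 and 126 CPM (log2 -3.09 ± 0.14, adjusted p = 1.15e-06).

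The receptor tyrosine kinases of the tumour cells covered several families. Pdgfrb was measured at 1.09, 0.458 and 1.29 CPM in macrophages and 409, 612 and 608 CPM in tumour cells (log2 -9.21 ± 0.35, adjusted p = 5.35e-07). Egfr was measured at 1.77, 3.27 and 3.20 against 66.2, 94.4 and 97.3 CPM (log2 -4.90 ± 0.24, adjusted p = 1.66e-06). Ddr2, a collagen receptor, was measured at 0, 0.262 and 1.37 against 545, 591 and 567 CPM (log2 -9.84 ± 0.51, adjusted p = 2.03e-06). Every macrophage library was far below every tumour library for these 3 kinases. Ephb4, an ephrin receptor, had 0 macrophage counts against 53.5, 50.3 and 48.4 CPM, at least 603-fold lower (adjusted p = 1.01e-06). Axl, a receptor for GAS6, was high in tumour cells but also present in macrophages, at 93.2, 140.2 and 157 against 731, 796 and 777 CPM (log2 -2.56 ± 0.20, adjusted p = 1.63e-05). Igf1r was measured at 37.7, 29.6 and 33.9 against 235, 202 and 209.8 CPM (log2 -2.68 ± 0.12, adjusted p = 9.98e-07). Met, the receptor for hepatocyte growth factor, was measured at 19.9, 32.0 and 38.3 against 96.0, 65.8 and 66.6 CPM (log2 -1.32 ± 0.25, adjusted p = 0.00206). Besides Csf1r and Mertk, the kinases higher in macrophages included Kdr, a vascular endothelial growth factor receptor, at 21.5, 13.9 and 11.3 against 0.0925, 0.0769 and 0.386 CPM (log2 6.27 ± 0.48, adjusted p = 1.59e-05).

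Adhesion and guidance receptors were shared out between the cell types. Of 22 integrin genes, 14 were higher in tumour cells and 6 in macrophages, the 6 all at least 4-fold. Itga11, a collagen-binding integrin, had 0 macrophage counts against 171, 147 and 149.6 CPM, at least 1851-fold lower (adjusted p = 6.55e-07). Itgb1, the most widely used beta chain, was measured at 577, 684 and 662 against 1649, 2929.8 and 2862 CPM (log2 -1.95 ± 0.24, adjusted p = 2.05e-04). Itgal, the chain of LFA-1, was higher in macrophages, at 112, 262 and 229 against 0.0925, 3.00 and 5.87 CPM (log2 6.02 ± 0.69, adjusted p = 1.45e-04). Plxnc1, a semaphorin receptor, was measured at 101, 74.4 and 86.0 against 0.370, 2.92 and 2.08 CPM (log2 5.54 ± 0.42, adjusted p = 1.35e-05). Nrp2, a co-receptor for semaphorins, was measured at 773, 924 and 862 against 137, 163 and 172 CPM (log2 2.44 ± 0.14, adjusted p = 3.02e-06). Unc5b, a netrin receptor, was higher in tumour cells, at 3.13, 2.81 and 3.04 against 184, 286 and 291 CPM (log2 -6.41 ± 0.24, adjusted p = 5.11e-07). Of 8 syndecans and glypicans, 6 were higher in tumour cells and 2 were not called. The transforming growth factor beta receptors were split by subunit. Tgfbr1 was higher in macrophages, at 213, 262 and 283 against 22.7, 20.8 and 23.2 CPM (log2 3.51 ± 0.13, adjusted p = 5.40e-07). Tgfbr2 was higher in tumour cells, at 84.5, 81.1 and 104 against 308, 381 and 347 CPM (log2 -1.94 ± 0.13, adjusted p = 8.54e-06).

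Inhibitory receptors were mostly macrophage genes. Lair1, a collagen-binding inhibitory receptor, was measured at 198, 271 and 269 CPM in macrophages and 0, 2.61 and 2.63 CPM in tumour cells (log2 7.07 ± 0.55, adjusted p = 1.62e-05). Pirb, a paired inhibitory receptor, was measured at 250.1, 236 and 235 against 0, 1.23 and 1.78 CPM (log2 7.82 ± 0.45, adjusted p = 3.56e-06). Sirpa, the receptor of the CD47 signal, was measured at 1880.2, 1949 and 2034 against 89.1, 93.1 and 94.4 CPM (log2 4.41 ± 0.13, adjusted p = 2.19e-07). Its ligand gene Cd47 differed far less and was also higher in macrophages, at 188, 203 and 193 against 125, 119 and 115 CPM (log2 0.70 ± 0.08, adjusted p = 1.42e-04). Cd274, the ligand PD-L1, was measured at 102, 44.9 and 52.1 against 3.61, 4.31 and 3.78 CPM (log2 4.07 ± 0.36, adjusted p = 3.16e-05). In the other direction, Nt5e, the ecto-nucleotidase CD73, was measured at 0.136, 0.131 and 0.0761 against 19.4, 11.8 and 12.2 CPM (log2 -6.89 ± 0.40, adjusted p = 3.34e-06). Cd80, a co-stimulatory ligand usually studied on antigen-presenting cells, was higher in the tumour cells, at 10.4, 10.0 and 10.6 against 56.8, 132 and 123 CPM (log2 -3.34 ± 0.32, adjusted p = 5.72e-05). The 3 macrophage libraries were nearly level for Cd80, and tumour 001 was the lowest of the tumour libraries. Cd276, the ligand B7-H3, was close in both, at 46.3, 64.9 and 55.8 against 70.7, 72.6 and 73.7 CPM (log2 -0.37 ± 0.12, adjusted p = 0.0294), and was not called without macrophage 003, tumour 002 or tumour 003.

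**Figure D3:**
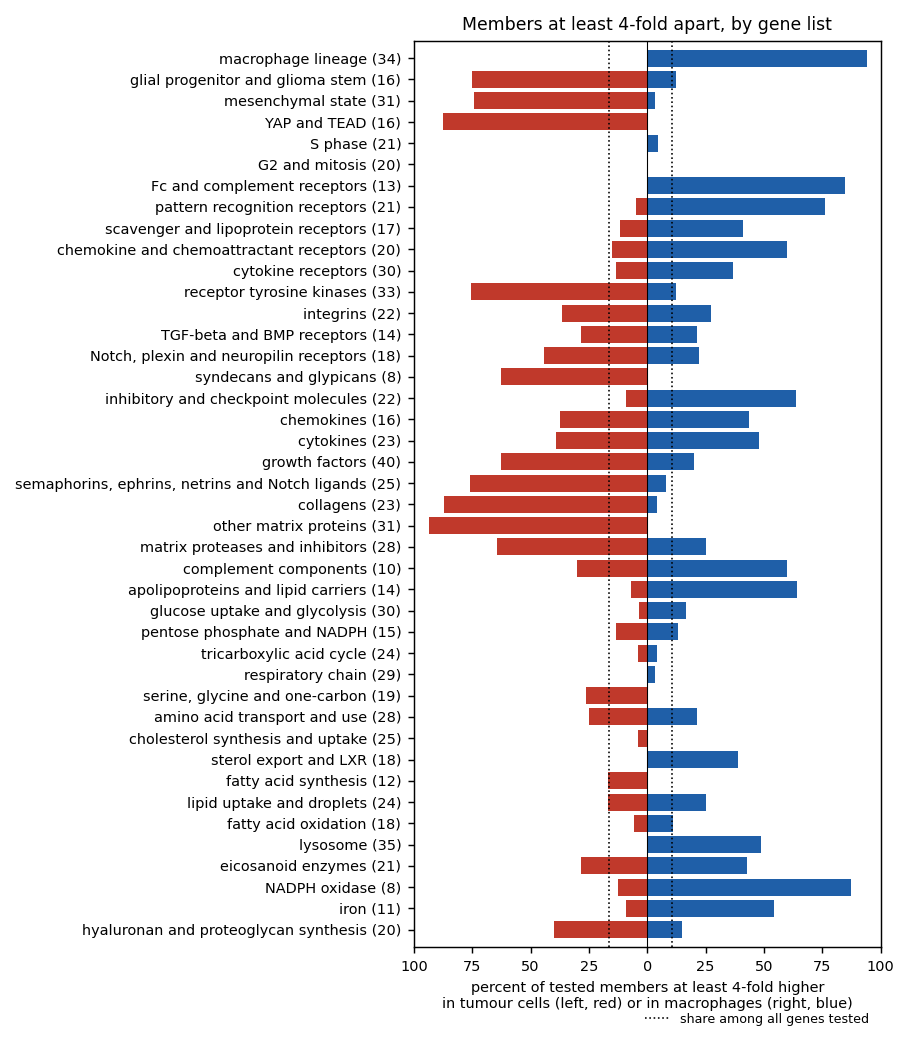
Share of the tested members of each gene list that were called and at least 4-fold apart, in percent, to the left in red for tumour cells and to the right in blue for macrophages, with the number tested in brackets. Dotted lines mark the shares among all tested genes, 16.4% for tumour cells and 10.6% for macrophages; Fc and complement receptors, NADPH oxidase and macrophage lineage reach far to the right, collagens, other matrix proteins and YAP and TEAD far to the left.

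More ligand genes were higher in the tumour cells than in macrophages. Of 210 tested ligand and matrix genes, 138 were higher in tumour cells and 59 in macrophages; 86.2% were at least 4-fold apart, and the median absolute log2 difference was 6.19, or 5.91 with genes at 0 counts set to their bound. Most of the tumour excess was matrix. Of 23 collagen genes, 20 were higher in tumour cells, and of 31 other matrix genes, 30 were. The collagens took 0.0190 to 0.0351% of the counts in the macrophage libraries and 2.68 to 4.38% in the tumour libraries. The other matrix genes took 0.259 to 0.362% of the counts in the macrophage libraries and 3.89 to 6.35% in the tumour libraries.

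Col1a1, a chain of collagen I, was measured at 0.545, 1.05 and 3.27 CPM in macrophages and 7218, 12069 and 12054 CPM in tumour cells (log2 -12.58 ± 0.75, adjusted p = 3.95e-06). Fn1, fibronectin, was measured at 14.7, 24.5 and 46.9 against 15939.8, 24607 and 24443 CPM (log2 -9.55 ± 0.59, adjusted p = 4.82e-06). Tnc, tenascin C, was measured at 1.91, 3.07 and 5.86 against 1050.2, 2371 and 2388 CPM (log2 -9.02 ± 0.57, adjusted p = 5.67e-06). For all 3, tumour 001 was the lowest tumour library and macrophage 003 the highest macrophage library. Lama2, a laminin chain, had 0 macrophage counts against 291, 286 and 292 CPM, at least 3453-fold lower (adjusted p = 3.24e-07). Ogn, osteoglycin, also had 0 macrophage counts, against 242, 66.3 and 63.9 CPM, at least 1396-fold lower (adjusted p = 6.38e-04). Ogn was highest in tumour 001, the reverse of Fn1, and was not called without a filter on low counts (adjusted p = 0.0552). Col18a1, the chain that yields endostatin, was the collagen higher in macrophages, at 187, 251 and 230.4 against 44.2, 51.4 and 49.1 CPM (log2 2.21 ± 0.13, adjusted p = 4.03e-06). Spp1, osteopontin, was very abundant in both and not called, at 2837, 2865 and 3181 CPM in macrophages and 1931, 3234 and 3299 CPM in tumour cells (log2 0.07 ± 0.22, adjusted p = 0.798). Its log2 difference was 0.67 and was called (adjusted p = 0.0357) with tumour 002 and 003 left out.

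Matrix proteases and their inhibitors were divided, 10 higher in macrophages and 18 in tumour cells, with all 28 called. Mmp12, whose promoter is printed above, was measured at 5253, 5249.6 and 5670.0 CPM in macrophages and 0.0925, 6.69 and 8.96 CPM in tumour cells (log2 9.98 ± 1.12, adjusted p = 1.24e-04). Mmp8, the neutrophil collagenase, had 3 tumour counts against 51.5, 40.4 and 38.6 CPM in macrophages, a ratio of 515 (95% counting interval 176 to 2499.9). Mmp2, gelatinase A, had 3 macrophage counts against 149.7, 249 and 242 CPM in tumour cells, a ratio of 2590.1 (95% counting interval 886 to 12562). Mmp14, a membrane-bound protease that activates pro-Mmp2, was measured at 2.86, 3.07 and 6.70 against 258, 269.8 and 267 CPM (log2 -5.94 ± 0.29, adjusted p = 1.45e-06). The inhibitor genes Timp3 and Timp2 were higher in tumour cells. Timp3 was measured at 0.273, 0.262 and 2.13 against 2483, 3500.1 and 3706 CPM (log2 -11.73 ± 0.76, adjusted p = 6.07e-06). Timp2 was measured at 213, 177 and 216 against 3533, 5467 and 5374 CPM (log2 -4.57 ± 0.24, adjusted p = 2.04e-06).

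More growth factor genes were higher in tumour cells, 26 of 40, than in macrophages, 9 of 40. By transcript the order was the other way: the list took 0.249 to 0.335% of the counts in the macrophage libraries and 0.216 to 0.242% in the tumour libraries. Pdgfb was one of the 9, at 82.7, 155 and 109.9 CPM in macrophages against 2.50, 4.54 and 5.17 CPM (log2 4.81 ± 0.32, adjusted p = 7.53e-06). Igf1, insulin-like growth factor 1, was measured at 513, 763 and 705 against 2.22, 10.4 and 14.6 CPM (log2 6.17 ± 0.59, adjusted p = 5.47e-05). Tgfb1 was measured at 250.1, 241 and 223 against 30.4, 24.2 and 25.2 CPM (log2 3.16 ± 0.12, adjusted p = 4.90e-07). Its paralogue Tgfb2 was a tumour gene, at 0, 0.196 and 0.761 against 41.6, 26.1 and 24.6 CPM (log2 -6.37 ± 0.51, adjusted p = 1.98e-05). The tumour cells also carried ligands of the epidermal growth factor family. Hbegf was measured at 1.50, 1.37 and 1.98 against 68.7, 84.6 and 87.6 CPM (log2 -5.62 ± 0.18, adjusted p = 3.10e-07). Ereg, epiregulin, had 0 macrophage counts against 43.9, 58.8 and 58.4 CPM, at least 648-fold lower (adjusted p = 3.79e-06). Fgf7, a fibroblast growth factor, was measured at 0, 0.0654 and 0.304 against 304, 149 and 151 CPM (log2 -10.39 ± 0.59, adjusted p = 3.14e-06). Vegfa, the vascular growth factor, was present in both and higher in tumour cells, at 26.0, 36.3 and 30.8 against 80.5, 143 and 133 CPM (log2 -1.93 ± 0.23, adjusted p = 1.88e-04).

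Cytokines were divided evenly by number of genes, 12 of 23 higher in macrophages and 11 in tumour cells. By transcript the list was larger in tumour cells. It took 0.0256 to 0.0273% of the counts in the macrophage libraries and 0.0804 to 0.122% in the tumour libraries. The ligand genes of the CSF1 receptor were higher in the tumour cells. Csf1 was measured at 6.54, 10.3 and 13.4 CPM in macrophages and 639, 869 and 853 CPM in tumour cells (log2 -6.26 ± 0.29, adjusted p = 1.26e-06). Il34 had 1 macrophage count against 21.6, 38.1 and 36.4 CPM, a ratio of 1169 (95% counting interval 209 to 46227). Il33, an alarmin, had 0 macrophage counts against 28.1, 59.1 and 57.4 CPM, at least 589-fold lower (adjusted p = 6.42e-05). For all 3 of these tumour 001 was the lowest tumour library. On the macrophage side, Tnf was measured at 45.2, 40.2 and 36.0 against 0, 0.692 and 0.618 CPM (log2 6.43 ± 0.42, adjusted p = 6.34e-06). Il1rn, the interleukin-1 receptor antagonist, was measured at 67.7, 28.1 and 24.8 against 0, 0.692 and 1.47 CPM (log2 5.70 ± 0.71, adjusted p = 2.20e-04). Osm, oncostatin M, was low but called, at 3.82, 3.34 and 2.28 against 0.0925, 0.461 and 0.154 CPM (log2 3.63 ± 0.51, adjusted p = 4.53e-04).

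Of 16 chemokines tested from 27 listed, 7 were higher in macrophages and 6 in tumour cells. Ccl9 was measured at 524, 897 and 799 CPM in macrophages and 5.92, 11.1 and 15.1 CPM in tumour cells (log2 6.10 ± 0.40, adjusted p = 6.26e-06). Ccl3 was measured at 52.6, 63.3 and 44.1 against 0, 0.692 and 2.24 CPM (log2 5.69 ± 0.58, adjusted p = 7.30e-05). Cxcl12, the ligand of CXCR4 and ACKR3, was measured at 0.136, 0.458 and 2.89 against 315, 333 and 322 CPM (log2 -7.98 ± 0.53, adjusted p = 7.07e-06). Cxcl12 and Ccl7 were the opposite of Ccl9 and Ccl3 in direction. Ccl7 was measured at 2.59, 6.21 and 3.96 against 22.8, 45.0 and 43.5 CPM (log2 -3.06 ± 0.36, adjusted p = 1.70e-04). Of the semaphorins, ephrins, netrins and Notch ligands, 23 of 25 were higher in tumour cells. Sema3a had 1 macrophage count against 465, 433 and 436 CPM, a ratio of 15865 (95% counting interval 2847 to 626662). Sema4d was the larger exception, at 686, 833 and 735 CPM in macrophages against 1.20, 7.92 and 8.18 CPM (log2 7.00 ± 0.58, adjusted p = 2.45e-05).

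Of 10 complement genes, 6 were higher in macrophages and 3 in tumour cells, all 9 at least 4-fold. Of 14 apolipoproteins and lipid carriers, 12 were higher in macrophages and 1 in tumour cells. C1qb was measured at 221, 284 and 386 CPM in macrophages and 0.0925, 16.3 and 21.5 CPM in tumour cells (log2 4.53 ± 0.88, adjusted p = 0.00251). C1s1, a protease of the same C1 complex, had 3 macrophage counts against 13.6, 10.3 and 11.5 CPM, a ratio of 139 (95% counting interval 47.4 to 679). Apoe was measured at 923, 617 and 1027 against 0.925, 9.15 and 11.0 CPM (log2 6.91 ± 0.73, adjusted p = 9.13e-05). Lpl, lipoprotein lipase, was measured at 6862, 9808 and 9933 against 0, 14.2 and 18.1 CPM (log2 9.68 ± 1.42, adjusted p = 5.39e-04). Apod, an apolipoprotein of glia and stromal cells, had 0 macrophage counts against 14.9, 29.5 and 27.9 CPM, at least 294-fold lower (adjusted p = 6.91e-05).

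Ligand and receptor genes were then read together. Of 106 listed pairs, 87 had both genes tested, from 67 ligands and 71 receptors, so pairs share members. In 29 pairs both genes were called higher in tumour cells and in 12 both were called higher in macrophages. In 19 the ligand was higher in tumour cells and the receptor in macrophages, 12 of them with both genes at least 4-fold apart. In 10 the ligand was higher in macrophages and the receptor in tumour cells, 6 with both at least 4-fold. Of all single genes, 32.3% were called higher in macrophages and 37.5% in tumour cells, 10.6% and 16.4% at least 4-fold. The pair counts were not tested against these shares.

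The tumour-to-macrophage pairs at 4-fold included Csf1 and Il34 with Csf1r, Cxcl12 with Cxcr4, Cx3cl1 with Cx3cr1, Thbs1 with Cd36, Col1a1 with Lair1, and Sema3a with Nrp1. Cxcr4, the chemokine receptor, was measured at 94.2, 67.8 and 56.6 CPM in macrophages and 0.555, 1.38 and 1.70 CPM in tumour cells (log2 5.86 ± 0.34, adjusted p = 3.35e-06). Thbs1, thrombospondin 1, was measured at 3.68, 12.6 and 18.9 against 5629, 7355 and 7973 CPM (log2 -9.19 ± 0.67, adjusted p = 1.15e-05). Cx3cl1, fractalkine, was measured at 1.50, 3.66 and 2.66 against 77.1, 59.1 and 64.2 CPM (log2 -4.59 ± 0.25, adjusted p = 2.57e-06). The 6 macrophage-to-tumour pairs at 4-fold were Pdgfb with Pdgfra, Pdgfb with Pdgfrb, Osm with Osmr, Tnfsf12 with Tnfrsf12a, Igf1 with Igf1r, and Sema4d with Plxnb1. Tnfsf12, the cytokine TWEAK, was measured at 68.8, 46.0 and 41.5 against 7.12, 6.77 and 6.25 CPM (log2 2.95 ± 0.21, adjusted p = 1.13e-05). Pairs within the tumour cells included Hbegf with Egfr and Cxcl12 with Ackr3, and pairs within macrophages included Tnf with Tnfrsf1b and Apoe with Trem2. Gas6, a ligand of AXL and MERTK, stood at 90.4, 67.4 and 99.0 CPM in macrophages and 83.5, 75.7 and 78.2 CPM in tumour cells and was not called (adjusted p = 0.517), but was called without macrophage 002 (log2 0.32, adjusted p = 0.028). A pair here means transcript levels only, since neither protein nor binding was measured.

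**Figure D4:**
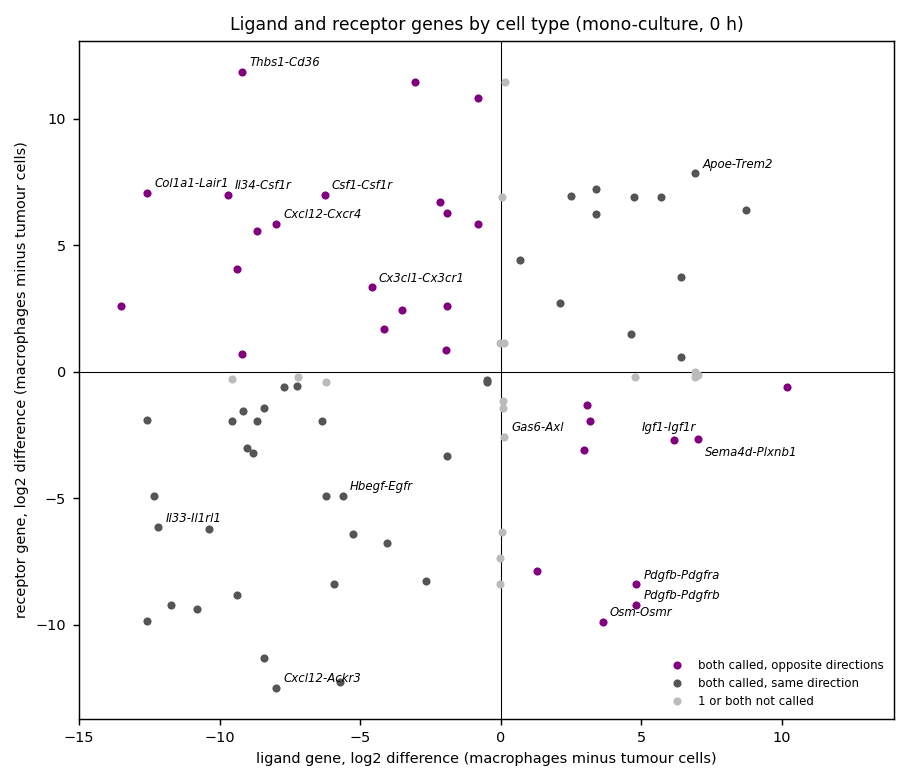
The 87 ligand and receptor pairs with both genes tested, the ligand's log2 difference (macrophages minus tumour cells) on the horizontal axis and the receptor's on the vertical axis, 1 point per pair. Purple points, called in opposite directions, lie upper left for tumour ligands with macrophage receptors (19 pairs) and lower right for macrophage ligands with tumour receptors (10 pairs); dark points were called in the same direction and pale points had a gene that was not called.

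Metabolic genes differed less than the identity, receptor and ligand genes. Of 333 tested, 158 were higher in macrophages and 89 in tumour cells, 33.3% were at least 4-fold apart against 27.1% of all genes, and the median absolute log2 difference was 1.03. Energy pathways differed little: of 29 respiratory chain genes 13 were higher in macrophages, 3 were higher in tumour cells and 13 were not called, and 1 was at least 4-fold apart, with a median log2 difference of 0.13. The 13 higher in macrophages became 6 with tumour 002 and 003 left out. In the tricarboxylic acid cycle 10 of 24 genes were higher in macrophages, 5 in tumour cells, and 9 were not called. The shares over all genes were 32.3% higher in macrophages and 37.5% in tumour cells.

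Of 30 glycolysis genes, 16 were higher in macrophages and 5 in tumour cells, with a median log2 difference of 0.53. Aldoc, an aldolase, was measured at 67.0, 101 and 85.1 CPM in macrophages and 3.33, 0.615 and 1.08 CPM in tumour cells (log2 5.71 ± 0.44, adjusted p = 1.65e-05). Slc2a1, the glucose transporter GLUT1, stood at 89.1, 132 and 105 against 116, 58.6 and 61.1 CPM and was not called (log2 0.47 ± 0.28, adjusted p = 0.171); it was called without tumour 001 (log2 0.86, adjusted p = 0.00184). Within enzyme families the shares of the forms differed. Hk3, a hexokinase of myeloid cells, was measured at 536, 387 and 430.1 against 0.0925, 1.46 and 2.63 CPM (log2 8.27 ± 0.53, adjusted p = 5.81e-06). Per exon length, Hk3 made up 78.8% ± 2.62 (SD, n = 3) of hexokinase transcripts in macrophages and 1.31% ± 1.20 in tumour cells. Hk1, the form used by most tissues, made up 13.8% ± 2.53 in macrophages and 74.6% ± 3.56 in tumour cells. The level of Hk1 itself was not called, so its share differed through the other forms, of which Hk3 and Hk2 were called higher in macrophages. Pfkm, a phosphofructokinase, made up 19.6% ± 1.54 of its family in macrophages and 54.7% ± 7.88 in tumour cells. Pfkp made up 48.3% ± 2.54 and 12.3% ± 0.724. Of 24 isozyme families examined, 12 had members called in opposite directions, and shares could not be computed for 2. Of all genes, 32.3% were called higher in macrophages and 37.5% in tumour cells. A family of several members can therefore hold both calls at the general rate, and the count was not tested against it.

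The shares of the forms differed in other families as well. Slc16a1, the lactate transporter MCT1, made up 27.7% ± 0.660 of monocarboxylate transporter transcripts per exon length in macrophages and 88.8% ± 1.89 in tumour cells. The level of Slc16a1 itself was not called, and Slc16a3, Slc16a6 and Slc16a7 were all called higher in macrophages. Slc16a3, the lactate exporter MCT4, made up 41.0% ± 3.63 and 5.80% ± 2.56; its level was 54.1, 92.1 and 74.4 CPM in macrophages and 1.66, 4.77 and 3.78 CPM in tumour cells (log2 4.41 ± 0.35, adjusted p = 1.71e-05). Pdk1, a kinase that inhibits pyruvate dehydrogenase, made up 63.2% ± 1.09 of its family in macrophages and 12.9% ± 1.77 in tumour cells. Pdk3 made up 24.8% ± 1.30 and 67.2% ± 0.744. In the malic enzymes Me1 led in both cell types and made up 55.6% ± 2.92 in macrophages and 84.5% ± 0.752 in tumour cells, and its level was 23.2, 40.7 and 31.8 against 189.9, 181 and 171 CPM (log2 -2.48 ± 0.19, adjusted p = 1.50e-05). Of 15 pentose phosphate genes, 10 were higher in macrophages and 2 in tumour cells, 2 and 2 at least 4-fold. The 4-fold shares over all genes were 10.6% in macrophages and 16.4% in tumour cells. Taldo1, transaldolase, was measured at 599, 791 and 655 against 119, 119 and 115 CPM (log2 2.54 ± 0.13, adjusted p = 2.18e-06). Pgd, a dehydrogenase that makes NADPH, was measured at 736, 962 and 817 against 235, 204 and 197 CPM (log2 1.98 ± 0.14, adjusted p = 1.09e-05).

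Of 19 serine and one-carbon genes, 10 were higher in tumour cells and 3 in macrophages, where 37.5% of all genes were higher in tumour cells. At least 4-fold apart were 5, each higher in tumour cells. They were 26.3% of the list, against 27.1% of all genes in either direction and 16.4% higher in tumour cells. The median log2 difference of the list was -0.42. Phgdh, the first enzyme of serine synthesis, was measured at 23.4, 24.8 and 21.9 CPM in macrophages and 219, 230.4 and 219 CPM in tumour cells (log2 -3.25 ± 0.09, adjusted p = 1.97e-07). Aldh1l2, a mitochondrial folate enzyme, was measured at 0.681, 1.37 and 1.14 against 232, 191 and 176 CPM (log2 -7.45 ± 0.21, adjusted p = 2.13e-07). Its cytosolic paralogue Aldh1l1 was higher in macrophages, at 26.6, 30.4 and 35.2 against 14.4, 8.00 and 6.95 CPM (log2 1.66 ± 0.27, adjusted p = 9.44e-04). The groups did not overlap for any of the 3. Amino acid genes were divided 12 and 12 among 28, where 32.3% of all genes were higher in macrophages and 37.5% in tumour cells. Bcat1, the cytosolic branched-chain aminotransferase, was measured at 0.681, 0.262 and 0.609 against 123, 145 and 127 CPM (log2 -8.07 ± 0.22, adjusted p = 1.88e-07). It made up 0.519% ± 0.227 of aminotransferase transcripts per exon length in macrophages and 71.6% ± 3.63 in tumour cells. Slc7a5, the transporter LAT1, was measured at 11.3, 23.7 and 18.2 against 351, 380.0 and 335 CPM (log2 -4.29 ± 0.25, adjusted p = 3.45e-06). Slc7a8, the related transporter LAT2, was a macrophage gene, at 125, 221 and 163 against 0.370, 3.31 and 5.33 CPM (log2 5.77 ± 0.55, adjusted p = 5.02e-05).

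Lipid genes were read by step. Of 24 uptake and droplet genes, 13 were higher in macrophages and 7 in tumour cells, 6 and 4 of them at least 4-fold. Of 18 sterol export genes, 12 were higher in macrophages and 2 in tumour cells, with 7 and 0 at least 4-fold, where 10.6% and 16.4% of all genes were at least 4-fold higher in macrophages and in tumour cells. Cholesterol synthesis differed little, with 14 of 25 genes not called, 8 higher in tumour cells and 3 in macrophages. The 3 became 6 without tumour 001, 10 without both 001 libraries and 0 with tumour 002 and 003 left out. Of 12 fatty acid synthesis genes, 8 were higher in tumour cells and 1 in macrophages. Of the 8, 2 were at least 4-fold apart, 16.7% of the list, which is close to the 16.4% of all genes. Abcg1, a sterol exporter, was measured at 290.1, 136 and 184 CPM in macrophages and 0.185, 1.31 and 2.08 CPM in tumour cells (log2 7.34 ± 0.52, adjusted p = 9.82e-06). Nr1h3, the sterol-sensing receptor LXR alpha, was measured at 23.2, 16.7 and 17.4 against 0.370, 0.538 and 0.232 CPM (log2 5.60 ± 0.28, adjusted p = 1.76e-06). Abca1, the other main sterol exporter, was not called, at 58.1, 22.2 and 56.1 against 76.2, 64.7 and 76.2 CPM (log2 -0.68 ± 0.33, adjusted p = 0.0983), with macrophage 002 the lowest library. Pparg, a lipid-sensing receptor, was measured at 56.7, 53.3 and 46.6 against 3.05, 2.85 and 2.63 CPM (log2 4.20 ± 0.13, adjusted p = 3.04e-07). Plin2, a lipid droplet coat protein, was measured at 708, 652 and 574 against 191, 217 and 218 CPM (log2 1.63 ± 0.12, adjusted p = 1.38e-05).

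Among the synthesis genes, Scd1, a desaturase, was measured at 108, 92.0 and 92.7 CPM in macrophages and 993, 599 and 547 CPM in tumour cells (log2 -2.87 ± 0.25, adjusted p = 2.82e-05). Scd2, the desaturase prominent in brain, was measured at 647, 511 and 662 against 3116, 2129 and 1888 CPM (log2 -1.97 ± 0.23, adjusted p = 1.39e-04). Tumour 001 was the highest library for both. Fasn, fatty acid synthase, stood at 369.7, 422 and 467 against 551, 399 and 427 CPM and was not called (adjusted p = 0.486). Cpt1c, the brain-type carnitine palmitoyltransferase, was measured at 0.954, 1.37 and 0.609 against 45.8, 44.2 and 43.9 CPM (log2 -5.47 ± 0.22, adjusted p = 6.68e-07). It made up 0.871% ± 0.294 of that family per exon length in macrophages and 38.2% ± 4.17 in tumour cells.

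Lysosomal genes were mostly macrophage genes. Of 35, 30 were higher in macrophages, 17 at least 4-fold, and 2 were higher in tumour cells, and the list took 4.14 to 4.70% of the counts in the macrophage libraries and 0.737 to 0.905% in the tumour libraries. Ctsb, cathepsin B, was measured at 11463, 10236 and 10585 CPM in macrophages and 695, 770.4 and 778 CPM in tumour cells (log2 3.85 ± 0.16, adjusted p = 8.31e-07). Ctss, cathepsin S, was measured at 5245, 4548 and 4956 against 0.740, 14.5 and 20.0 CPM (log2 8.70 ± 1.06, adjusted p = 1.99e-04). Lipa, the lysosomal lipase, was measured at 2534, 2802 and 2686 against 119.7, 123 and 131 CPM (log2 4.43 ± 0.14, adjusted p = 2.72e-07). Cathepsin S was close to 0 in tumour 001, whereas cathepsin B and the lipase were transcribed in every tumour library. Atp6v0d2, a proton pump subunit, was measured at 683, 354 and 467 against 0.832, 0.538 and 1.24 CPM (log2 9.15 ± 0.39, adjusted p = 8.48e-07). Gaa, the lysosomal glucosidase, was one of the 2 tumour genes, at 144, 90.6 and 108 against 282, 217 and 223 CPM (log2 -1.08 ± 0.19, adjusted p = 0.00132).

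Of 11 iron genes 9 were higher in macrophages, and of 8 NADPH oxidase genes 7 were. Slc11a1, an iron and manganese exporter of the phagosome, was measured at 339, 376 and 352 CPM in macrophages and 0.0925, 3.23 and 4.09 CPM in tumour cells (log2 7.11 ± 0.57, adjusted p = 1.89e-05). Fth1, ferritin heavy chain, whose reads may be shared with processed copies, was measured at 11323, 11497 and 10355 against 1269, 937 and 974 CPM (log2 3.38 ± 0.19, adjusted p = 3.14e-06). Cybb, the catalytic subunit of the phagocyte oxidase, was measured at 753, 882 and 1006 against 0.277, 11.2 and 13.6 CPM (log2 6.70 ± 0.89, adjusted p = 3.26e-04). Nox4, the oxidase of stromal cells, had 0 macrophage counts against 11.8, 13.6 and 14.3 CPM, at least 159-fold lower (adjusted p = 8.57e-06). Nox4 was thus counted in the tumour cells alone. Cybb was close to 0 in tumour 001 but near the level of Nox4 in tumour 002 and 003. The source of those Cybb transcripts was not tested. Ptgs2, the inducible prostaglandin synthase COX-2, was measured at 3.27, 9.42 and 5.33 against 499, 607 and 574 CPM (log2 -6.48 ± 0.35, adjusted p = 2.46e-06). Ptgis, which makes prostacyclin, had 1 macrophage count against 26.6, 63.5 and 64.6 CPM, a ratio of 1898 (95% counting interval 340.3 to 75008). Hpgds, whose promoter is printed above, was measured at 226, 211 and 231 against 0, 2.00 and 2.16 CPM (log2 7.25 ± 0.49, adjusted p = 7.69e-06). Alox5ap, which serves leukotriene synthesis, was measured at 276, 429 and 334 against 0.370, 3.84 and 4.09 CPM (log2 6.92 ± 0.52, adjusted p = 1.44e-05). Of 20 hyaluronan and proteoglycan synthesis genes, 13 were higher in tumour cells and 5 in macrophages. Has2, a hyaluronan synthase, had 0 macrophage counts against 28.6, 21.8 and 19.9 CPM, at least 276-fold lower (adjusted p = 1.05e-05).

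**Figure D5:**
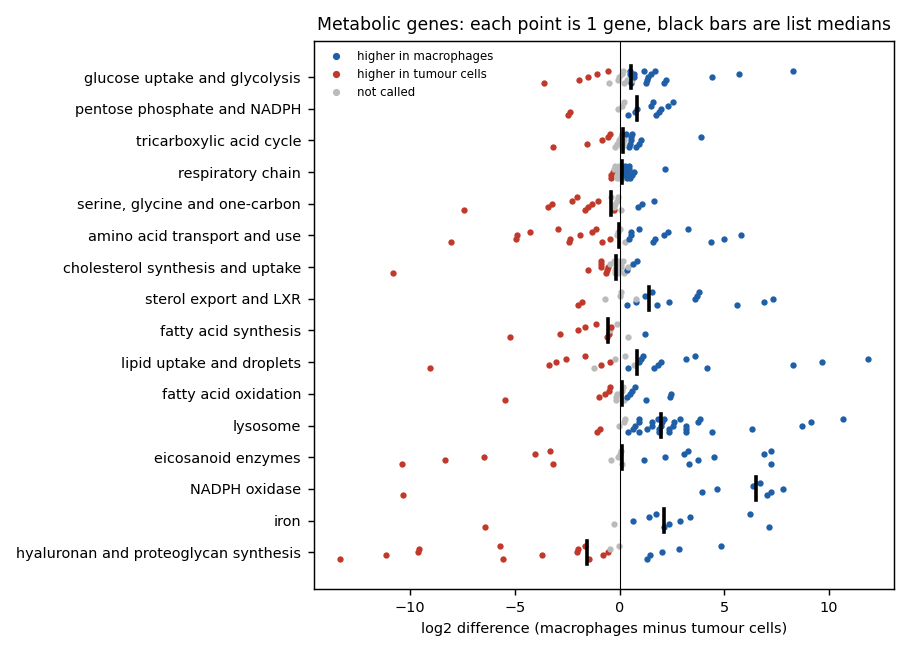
Log2 difference (macrophages minus tumour cells) of each tested metabolic gene, 1 point per gene and 1 row per list, blue for genes called higher in macrophages, red for tumour cells, grey for not called, and black bars for list medians. Respiratory chain points crowd around 0, lysosome and NADPH oxidase points lie to the right, and serine and fatty acid synthesis medians lie to the left of 0.

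Markers of other cell types were read for each label. T cell markers were represented by 1 tested gene of 8, Il7r, at 540.5, 380.3 and 389 CPM in macrophages against 0, 0.461 and 0.926 CPM (log2 9.78 ± 0.46, adjusted p = 1.28e-06). Of 8 fibroblast and pericyte markers tested, 7 were higher in tumour cells and 1, Anpep, in macrophages; the 7 include the collagens and Cd248 given above. Of 8 neuron markers only 3 were tested, and these were higher in tumour cells. A gene could pass the count filter through 1 group alone. Rbfox3, Syt1, Snap25, Gad1 and Slc17a7 were too low to test, Syt1 the highest of them in tumour cells at 7 counts. Stmn2, a neuronal stathmin, had 0 macrophage counts against 54.6, 109 and 98.0 CPM, at least 1063-fold lower (adjusted p = 3.17e-05). Tmem119, a surface gene used to mark microglia, was also a tumour gene here, at 0.818, 1.44 and 0.685 against 78.9, 128 and 126 CPM (log2 -6.75 ± 0.32, adjusted p = 1.33e-06). Mbp, the myelin basic protein gene, which also has transcripts in blood cells, was higher in macrophages, at 107, 135 and 115 against 2.68, 1.69 and 2.24 CPM (log2 5.76 ± 0.18, adjusted p = 2.67e-07). Gja1, connexin 43, an astrocyte marker also found in mesenchymal cells, was higher in tumour cells, at 0.409, 1.37 and 0.989 against 319, 394 and 385 CPM (log2 -8.48 ± 0.25, adjusted p = 2.37e-07). Of 4 tested astrocyte markers, Gja1 and S100b were higher in tumour cells and Aldoc and Aldh1l1, given above, in macrophages. Of 3 tested B cell markers, 2 were higher in macrophages and 1 in tumour cells, and of 4 endothelial markers 2 and 2. The 3 neutrophil and progenitor markers tested, S100a8, S100a9 and Mpo, were higher in macrophages, S100a9 not without tumour 001 (adjusted p = 0.0726). The neutrophil and progenitor list took 7.18e-04 to 0.00379% of the counts in the macrophage libraries and 0 to 4.09e-05% in the tumour libraries. Of 5 oligodendrocyte markers, 3 were higher in macrophages and 1 in tumour cells, and of 3 microglia markers 2 were higher in tumour cells. The single dendritic cell marker tested, Zbtb46, was higher in tumour cells, but was not called with tumour 002 and 003 left out (adjusted p = 0.053). How far cells other than those named on the labels contribute to these levels was not tested.

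The same contrast was measured in other libraries of the study: after co-culture at 0 hours, and in mono-culture 24 hours after myelin debris. In co-culture, 8866 of 12911 genes were called (68.7%), and of the 9144 genes called in mono-culture 8922 were tested there, 7838 were called in the same direction and 9 in the opposite one. At 24 hours, 9689 of 13387 genes were called (72.4%), with 8011 of 9017 in the same direction and 36 in the opposite one. Of the genes at least 4-fold apart, 2966 of 3360 in co-culture and 3115 of 3442 at 24 hours met the same limit in the same direction, where 24.9% and 27.9% of all tested genes met it. These libraries are not the 6 compared above.

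Csf1r stood at 2210.2, 2484 and 2262 CPM in co-cultured macrophages and 1.49, 118 and 69.9 CPM in co-cultured tumour cells, where its log2 difference was 5.20 (adjusted p = 0.0173). Tumour 002 and 003 were again above tumour 001. At 24 hours the log2 difference was 5.02 (adjusted p = 0.029). C1qa, called in mono-culture at 0 hours (log2 2.61, adjusted p = 0.0284), had log2 differences of 2.85 (adjusted p = 0.0881) and 0.12 (adjusted p = 0.94) and was called in neither. In mono-culture its call was lost without macrophage 002, macrophage 003 or tumour 002, with log2 differences from 2.19 to 2.88. It was also lost with DESeq2 (adjusted p = 0.0782), without a filter on low counts (adjusted p = 0.153), with all 18 mono-culture libraries in the fit (adjusted p = 0.102) and without both 001 libraries (adjusted p = 0.0526). Csf1 had log2 differences of -4.51 in co-culture (adjusted p = 5.11e-04) and -5.10 at 24 hours (adjusted p = 2.56e-05). Pdgfb had 4.43 (adjusted p = 4.84e-04) and 4.24 (adjusted p = 1.82e-04). The ligand genes thus had the direction they had in mono-culture at 0 hours. Phgdh had -2.92 (adjusted p = 4.64e-06) and -3.36 (adjusted p = 2.00e-06). Ptgs2 had -4.55 (adjusted p = 8.19e-04) and -5.59 (adjusted p = 3.06e-06). Abca1, not called in mono-culture at 0 hours, was called higher in macrophages in both, with 1.60 (adjusted p = 0.00397) and 1.99 (adjusted p = 6.12e-05). Whether any of these differences changed between conditions was not tested here.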

How the data were processed

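Gene expression was measured by bulk RNA sequencing in 36 mouse libraries, of which 6 were compared. Per the labels' protocols, column-purified, DNase-treated total RNA was primed with oligo-dT and copied by template switching; strand marking is not stated. The deposited values are whole-number counts per gene, on mm10 per the submitters' processing notes. The aligner, counter and annotation remain not given in the sources used here. Counts were filtered with filterByExpr, scaled by TMM (the CPM printed) and tested on the 6 libraries alone with edgeR 4.0.16 in R 4.3.3 (9452 genes at an unadjusted p under 0.05). Counting intervals (95%) and bounds (3 counts over the group) cover counting error only. Named genes were the 10 largest called differences per direction (mean of at least 50 CPM in the higher group, no overlap), up to 4 called members per list and direction (at least 10 CPM), a fixed set, and opposed pairs and isozymes. The 10 largest were taken without clone or provisional names, chromosome Y genes and Xist. A few genes that this rule names are not reported here. Other named list members were added after their values were seen. The members and lists were chosen with earlier results of these data known. Of 1107 listed genes, 918 were tested. Genes with near-identical copies (Fth1, class II genes) are uncertain. Isozyme shares used merged exon lengths, and promoters are RefSeq's. On simulated counts of 12859 genes for this comparison, edgeR recovered 69 of 95 genes changed 2-fold and 92 of 96 changed 4-fold. It also called 8 unchanged genes. Far fewer genes were changed there than differed in the data, so the simulation does not cover a contrast this wide. Alternatives included DESeq2 1.42.0, other scaling, filters and libraries.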

Additional observations from a re-analysis of the deposited data

How the results depend on the processing

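Against a 2-fold difference (glmTreat), 1960 genes were called higher in macrophages and 2657 in tumour cells, fewer because that test asks for more than any difference. Leaving out each library in turn gave 4029 to 4660 and 4370 to 5230 genes, 1444 to 1553 and 2180 to 2383 at least 4-fold, 338 to 382 and 351 to 375 list members, 3966 to 4756 and 3989 to 4751 genes in co-culture, and 4301 to 4751 and 4675 to 5157 at 24 hours, macrophages first. DESeq2 called 4183 and 4837. Without a filter, 1863 and 3025 genes were at least 4-fold apart, and of the genes described Lyz2, Cx3cr1, Ogn, Vim, Cdc20, Mertk, Cd276, S100a9 and C1qa were not called (adjusted p = 0.0547 to 0.177). With all 18 mono-culture libraries in the fit, C1qa and Cd276 were not called and Slc2a1 was (adjusted p = 0.0386). No scaling moved the median log2 difference of all genes by more than 0.1.

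The labels do not say that a number pairs a macrophage with a tumour library, and so few libraries cannot decide it. Both 001 libraries did share the high level of CT010467.1 given above. The residuals of same-numbered libraries correlated at 0.196, 0.246 and 0.0769, and macrophage 003 correlated best with tumour 002. With the number as a replicate block, 4187 and 4896 genes and 345 and 362 list members were called, 4330 and 4321 genes in co-culture, and 4564 and 4891 at 24 hours. Acat2 and Hmgcs1 were not called under it and Abca1 was (log2 -0.78, adjusted p = 0.0446).

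Log2 differences crossed 0 for Hk1, Slc16a1, Fasn, Spp1, Cmklr1, Mki67 and Slc2a1, and the cause was not tested. Hk1 was at 0.0354 without a filter, 0.0758 with all 18 libraries, 0.0256 without CT010467.1 and Lars2, 0.00903 without tumour 002 and 003 and -0.0176 to 0.123 leaving out single libraries. Slc16a1 was at 0.0178 with all 18 libraries, 0.0794 without both 001 libraries and -0.124 to 0.0875 leaving out single libraries. Single libraries left out gave -0.171 to 0.0177 for Fasn and -0.146 to 0.244 for Spp1, and leaving out both 001 libraries gave 0.102 and -0.114. With tumour 002 and 003 left out, Cmklr1 was at 0.112, Mki67 at -0.233 and Slc2a1 at -0.0409. Of the 345 genes followed, 334 were called, and 278 of them were called in the same direction under each of the 16 alternatives. The tumour 001 library alone then stood for its group and was assumed to vary like the macrophages. Both alternatives that left out pairs of libraries were chosen after seeing the data. Depth limits low genes: 3 counts over a group are the floor for every bound.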

Other observations

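The tumour libraries differed in their levels of macrophage genes. Of the genes at least 4-fold higher in macrophages with a mean of 50 CPM or more there, 209 of 577 stood in tumour 001 under 1% of their macrophage mean. Over these, the median level was 0.0474% of the macrophage mean in tumour 001, 0.901% in tumour 002 and 1.18% in tumour 003, and 200 genes in tumour 002 and 203 in tumour 003 were above their tumour 001 level, to which choosing genes low in tumour 001 adds. Single genes spread widely around those medians. C1qa reached 20.9% of its macrophage mean in tumour 002 and 27.4% in tumour 003, against 0.246% in tumour 001. Cx3cr1 reached 11.3 and 17.7%, and Stab1, a scavenger receptor of resident macrophages and sinus endothelium, 8.61 and 13.1%. Csf1r and Tyrobp were near the median, at 0.901 and 1.38% for Csf1r and 0.811 and 0.949% for Tyrobp. The genes given were chosen after their values were seen. The source of these transcripts was not tested.

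Tumour 001 also differed from tumour 002 and 003 in its own genes. Mki67 was at 294, 87.8 and 97.5 CPM, Ogn at 242, 66.3 and 63.9 CPM and Aspn at 139, 22.3 and 19.7 CPM in tumour 001, 002 and 003. Timp1 ran the other way, at 305, 879 and 884 CPM, as did Sema7a, at 72.6, 385 and 388 CPM. Crabp1 was at 432, 150.2 and 135 CPM. With 1 library on that side, no test was made.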
